A study of Mus musculus with 7 samples.

Results

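Of 39395 merged H3K4me2 regions on the 19 autosomes of mouse common monocyte progenitors (cMoPs), 1927 lay inside a protein-coding gene away from its ends, were called in all 4 H3K4me2 libraries and carried no H3K4me3 peak. They made up 4.89% of all merged regions and 16.2% of the 11891 regions called in all 4 libraries. The regions were found by merging touching or overlapping intervals of the 4 peak lists. A region was kept when a peak of every list overlapped it, when it lay more than 1 kb from both ends of every protein-coding gene of the mm10 RefSeq annotation, when its midpoint lay inside such a gene, and when it overlapped no peak of the WT H3K4me3 list. The regions were thus chosen by the calls in the 4 lists and by the H3K4me3 calls, and their presence and lack of H3K4me3 are no finding. They are called constant intragenic regions here. They lay on all 19 autosomes in 1498 host genes.

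The profiles came from cMoPs sorted from mouse bone marrow, the progenitors that give rise to monocytes. The samples carry variants of an enhancer at -165 kb of Zeb2, a gene of a repressor in monocyte and dendritic cell fate. The genotypes are called WT and DE in the labels, which do not spell out DE, and H3K4me2 was mapped in 2 libraries of each, all of batch 2. H3K4me3 was mapped in 1 WT cMoP library of batch 1, and the IgG library and the H3K4me3 library of another progenitor, the MDP, were not analysed here. The labels do not say whether replicates came from separate animals, so the spread between them may be technical, and they give no age or strain. All were made by CUTAC, in which an antibody brings a transposase to a histone mark and low salt favours cutting of the accessible DNA next to it.

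H3K4me2 marks nucleosomes around promoters and enhancers, whereas H3K4me3 is concentrated at active promoters. A region inside a gene with H3K4me2 and no H3K4me3 is therefore commonly read as a candidate enhancer. The same marks can lie at an inner promoter, from which a shorter transcript starts, when that promoter is weakly used. Here the lack of H3K4me3 is only the lack of a call in 1 list of 6322 autosomal peaks. Within 1 kb of gene ends, that list called 3668 of the regions shared by all 4 H3K4me2 libraries and left 4336 without a call. A missing call thus does not show that the mark is absent. In blood progenitors, intragenic enhancers are well known at genes of transcription factors such as Runx1, Gata2 and Meis1.

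A feature that the choice of regions did not use was overlap with an annotated transcript start inside the gene. The bases before 7 such starts inside host genes are shown because the constant intragenic region covers at least part of each. They are the 250 bases upstream of a RefSeq transcript start in the GRCm38.p6 (mm10) assembly, written 5′ to 3′ on the gene's strand. Gata2, Foxp1 and Hdac7 come from a list of blood cell regulators, and Prdm1, Egr2, Gfi1 and Stat5b were chosen after their values were seen. Capitals mark a GC box (GGGCGG), an E-box (CAGGTG), an AP-1 motif (TGANTCA) or a GATA motif (AGATAA) on either strand.
Gata2: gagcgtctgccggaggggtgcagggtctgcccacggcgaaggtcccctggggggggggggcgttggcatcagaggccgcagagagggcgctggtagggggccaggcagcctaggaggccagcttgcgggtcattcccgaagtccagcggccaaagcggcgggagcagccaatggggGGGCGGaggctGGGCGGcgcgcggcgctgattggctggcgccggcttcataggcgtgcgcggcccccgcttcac
Foxp1: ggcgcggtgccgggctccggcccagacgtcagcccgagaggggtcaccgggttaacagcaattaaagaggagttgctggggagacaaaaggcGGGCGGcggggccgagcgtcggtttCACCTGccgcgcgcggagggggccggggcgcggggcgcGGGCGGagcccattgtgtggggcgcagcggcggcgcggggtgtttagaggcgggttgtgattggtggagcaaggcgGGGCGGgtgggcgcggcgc
Hdac7: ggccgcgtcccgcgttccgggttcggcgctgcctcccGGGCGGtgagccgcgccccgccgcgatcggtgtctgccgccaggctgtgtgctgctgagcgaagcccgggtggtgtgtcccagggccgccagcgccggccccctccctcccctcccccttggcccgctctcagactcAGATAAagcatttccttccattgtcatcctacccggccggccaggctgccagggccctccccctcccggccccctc
Prdm1: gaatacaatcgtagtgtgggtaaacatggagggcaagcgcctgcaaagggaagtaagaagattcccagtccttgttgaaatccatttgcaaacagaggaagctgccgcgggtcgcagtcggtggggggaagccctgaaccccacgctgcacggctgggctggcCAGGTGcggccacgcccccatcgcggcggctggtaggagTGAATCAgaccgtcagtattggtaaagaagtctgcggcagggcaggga
Egr2: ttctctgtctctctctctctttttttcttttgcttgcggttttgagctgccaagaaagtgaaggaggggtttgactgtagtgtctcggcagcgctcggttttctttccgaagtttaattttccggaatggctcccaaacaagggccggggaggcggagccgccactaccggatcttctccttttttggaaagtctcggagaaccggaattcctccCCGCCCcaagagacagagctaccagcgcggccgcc
Gfi1: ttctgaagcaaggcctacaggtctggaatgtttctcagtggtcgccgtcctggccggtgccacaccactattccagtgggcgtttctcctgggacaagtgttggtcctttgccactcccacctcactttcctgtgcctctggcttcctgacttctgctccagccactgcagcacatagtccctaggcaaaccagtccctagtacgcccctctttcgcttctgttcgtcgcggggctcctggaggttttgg
Stat5b: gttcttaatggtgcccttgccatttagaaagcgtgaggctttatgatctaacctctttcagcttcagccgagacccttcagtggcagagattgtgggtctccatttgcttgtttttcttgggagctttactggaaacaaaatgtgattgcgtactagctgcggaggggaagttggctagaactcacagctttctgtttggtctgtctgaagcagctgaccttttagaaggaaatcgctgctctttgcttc

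The Gata2 stretch is chr6:88198414-88198663 on the plus strand, and the Foxp1 stretch chr6:99028299-99028548 on the minus strand. Hdac7 is shown at chr15:97831496-97831745 on the minus strand, Prdm1 at chr10:44458749-44458998 on the minus strand, and Egr2 at chr10:67537316-67537565 on the plus strand. The Gfi1 stretch is chr5:107724344-107724593 and the Stat5b stretch chr11:100822571-100822820, both on the minus strand. The Hdac7 and Prdm1 stretches lay wholly inside their regions, while 118 of the 250 Gata2 bases did. GC boxes were found in the Gata2, Foxp1, Hdac7 and Egr2 stretches shown. Other starts of Egr2 and Hdac7 lie over the same regions, and their upstream bases held none of the 9 motifs searched. For both genes the start with the lowest coordinate is shown. Prdm1 held an E-box and 2 AP-1 matches on the same bases, 1 per strand, and Gfi1 and Stat5b held none of the 9 motifs searched. A match says only that these letters are present. In the stretches shown, GC content ran from 46.4% in Stat5b to 74% in Gata2, Foxp1 and Hdac7. The Hdac7 stretch not shown had 62%.

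Start windows covered 250 bases before to 50 bases after each RefSeq transcript start, known or predicted. Of the 1871 constant intragenic regions on chromosomes with a start table, 462 overlapped such a window, which is 24.7% (95% Wilson interval 22.8 to 26.7). For 427 of them, 22.8% of the 1871, the start belonged to the host gene itself, and for 35 it belonged to a long noncoding RNA. The other 1409 overlapped no listed start. The background over all regions called in all 4 lists was 53.7%, since most of those lie at gene ends. Among constant intergenic regions without H3K4me3 the share was 9.24%, but these lie outside every protein-coding gene and so cannot cover a start of one. Of a kind that intergenic regions can have are the 35 regions over a start of another gene and none of the host, 1.87% of the 1871. Any region over both kinds of start counts among the 427, so this share may be too low. Among regions away from gene ends with H3K4me3 the share was 37.1%. Wilson intervals here cover counting error only.

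The share over a start grew with the number of lists in which an intragenic region without H3K4me3 was called. It was 2.34% for those called in 1 list, 6.65% in 2 lists and 10.9% in 3 lists. The median merged width also grew, from 122 bp in 1 list through 197 bp and 271 bp to 392 bp in all 4, and wider regions meet more windows. The part of width in this order was not tested. The number of intragenic regions fell from 6524 called in 1 list to 2276 in 2 and 1359 in 3, so the 1927 called in all 4 were 15.9% of 12086.

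**Figure D1:**
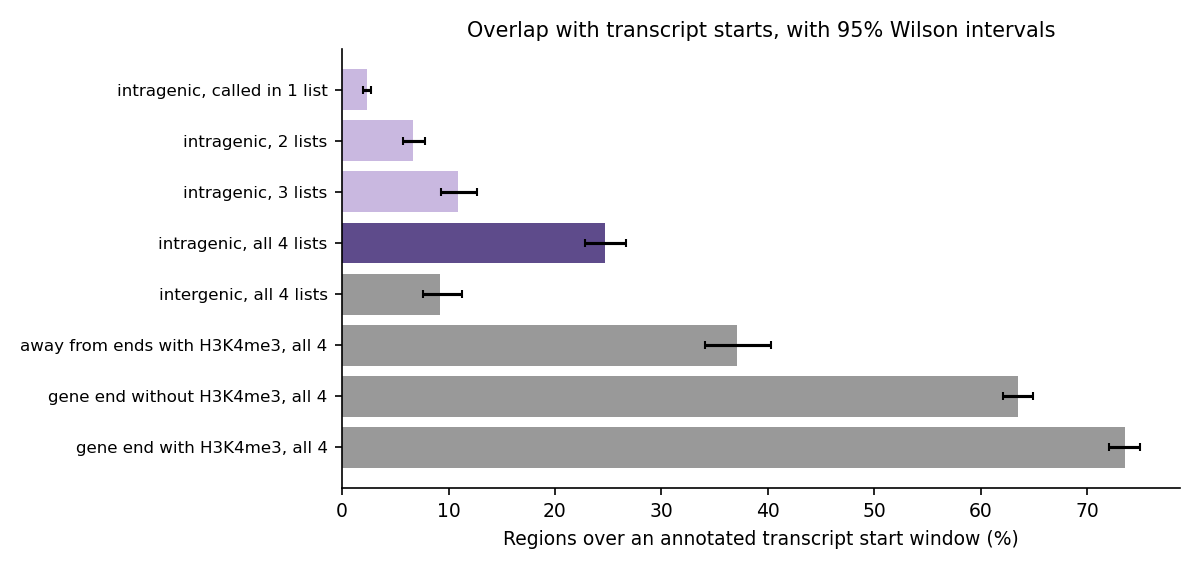
Share of regions that overlap a RefSeq transcript start window (250 bases before to 50 after a start), in percent, for intragenic regions without H3K4me3 by the number of lists that call them and for the other classes called in all 4 lists. Bars are shares and lines are 95% Wilson intervals; the constant intragenic regions stand at 24.7%, below the gene-end classes, and intergenic regions, which cannot cover a start of a protein-coding gene, at 9.24%.

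The base composition of these inner starts lay between that of all starts and that of starts at gene ends. Over the 569 windows that meet a constant intragenic region, the median GC content of the 250 upstream bases was 61.6%, against 52.4% over all 31365 autosomal windows. The ratio of observed to expected CpG dinucleotides was 0.683, against 0.379 over all windows and 0.836 over windows at gene-end regions with H3K4me3. A GC box was present in 59.4% of the 569 windows and in 33.0% of all windows. Most motifs of blood cell factors were less frequent in the 569 than in all windows: RUNX (TGTGGT) stood at 12.7% against 14.0%, PU.1 and other ETS factors (AGGAAGT) at 6.85% against 7.71%, and C/EBP (TTGCNNAA) at 7.21% against 9.66%. The IRF motif was in 1.76% against 2.97%, GATA in 5.80% against 9.95%, AP-1 in 4.75% against 6.77%, the ETS-IRF motif in 2.28% against 2.33%, and the E-box of E proteins and ZEB factors in 18.1% against 17.4%. Against windows at gene-end regions without and with H3K4me3, whose median GC content was 63.2% and 62.8%, several were more frequent in the 569. RUNX stood at 8.75% and 9.28% in those windows, GATA at 4.09% and 3.55%, AP-1 at 3.08% and 3.02% and the E-box at 15.6% and 12.4%. Neighbouring windows can share bases, and no test was made of these shares.

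Constant intragenic regions were short, and their summits lay close together in the 4 libraries. Their merged width had a median of 394 bp and ran from 129 to 3617 bp. The strongest summits of the 4 lists lay within a median of 65 bp of each other (quartiles 34 and 166 bp), and within 50 bp in 790 regions, 41.0% of them. Among intergenic constant regions the median summit range was 76 bp, and 36.5% lay within 50 bp. In both classes the rule puts the 4 summits into 1 merged region, so the summit range cannot exceed the width of that region. The nearest end of a protein-coding gene was a median of 4.57 kb away, and the nearest H3K4me3 peak a median of 61.2 kb away. Within 1 kb of an H3K4me3 peak, without touching it, were 128 regions.

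Regions gathered toward the 5′ side of their hosts. The strand of the host was known for 1551 regions, 80.5% of all. Of these, 659 lay in the first 20% of the host gene, counted 5′ to 3′, 338 in the next 20%, then 248, 181 and 125 in the last 20%. The median position was 27.0% of the gene's length. The annotation used gives gene bounds and transcript starts, so exons and introns were not separated.

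Most hosts held a single region and some held a cluster. There were 1192 host genes with 1 region, 217 with 2, 55 with 3 and 34 with 4 or more, and 22 regions lay in 2 overlapping genes. Neighbouring regions of one gene were a median of 1.44 kb apart over 448 pairs, and 254 pairs, 56.7%, lay at most 2 kb apart. Pxn, which encodes the focal adhesion adaptor paxillin, held the most, with 8. Plec, the cytoskeletal linker plectin, held 7. Kdm6b, a demethylase of H3K27me3, Rara, a retinoic acid receptor, and Rnf220, an E3 ubiquitin ligase, held 6 each. Bcl6, a transcriptional repressor, Chd9, a chromatin remodeller, Foxp1, a forkhead factor, Csrnp1 and Gse1 held 5 each.

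A constant intragenic region was found in 7.25% of the 20665 autosomal protein-coding genes, and this share rose with gene length. It was 2.33% of genes up to 10 kb long, 6.27% from 10 to 20 kb, 8.72% from 20 to 50 kb, 11.4% from 50 to 100 kb, 15.5% from 100 to 200 kb and 19.3% above 200 kb. Host genes had a median length of 41.1 kb, against 17.5 kb over all genes. An H3K4me2 region within 1 kb of an end was called in all 4 lists in 49.5% of hosts and 39.1% of all genes. Among genes over 20 kb these shares were 46.9% and 43.9%. In 36.2% of hosts neither end had a call in any list, against 46.2% of all genes, but among genes over 20 kb the shares were 38.6% and 38.8%. An H3K4me3 peak lay at an end of 22.2% of hosts and 21.6% of all genes, and of 20.8% and 23.0% among genes over 20 kb.

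**Figure D2:**
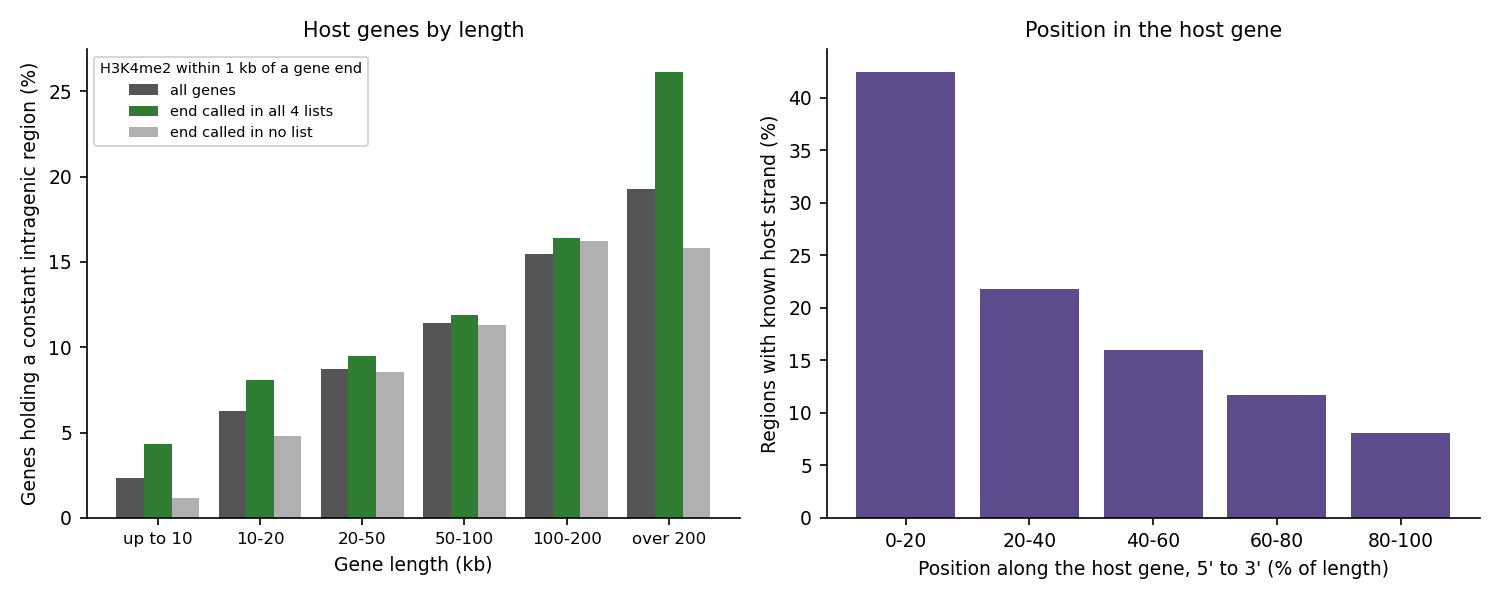
Left, percent of autosomal protein-coding genes that hold a constant intragenic region, by gene length in kb, for all genes and for genes whose ends are called in all 4 lists or in none. Right, percent of the 1551 regions with known host strand in each 20% of the host gene's length, 5′ to 3′; 659 lie in the first 20% and 125 in the last.

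Genes of myeloid transcription factors often held such regions. Of 45 myeloid transcription factor genes, 19 were hosts (42.2%, median length of the list 33.4 kb), against the 7.25% of all genes and the 8.72% of genes from 20 to 50 kb. Chromatin and corepressor genes had 12 of 40 (30%, 84.5 kb), and stem and progenitor genes 7 of 23 (30.4%, 36.1 kb). Over 16 gene lists, 81 of the 414 listed genes, 19.6%, were hosts, and some genes stand in more than 1 list. These are counts without a test, and the lists were drawn up with earlier results of these data known.

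Genes that carry out the monocyte and granulocyte programs were hosts in 10% and 14.3% of the 2 lists, against the 7.25% of all genes. Among 30 monocyte and macrophage genes, Fcgr3, an Fc receptor, Nr4a1, a nuclear receptor of monocytes, and Spn, the sialoglycoprotein CD43, were hosts, and the median gene length of this list is 14.8 kb, beside 6.27% of all genes from 10 to 20 kb. Among 21 granulocyte genes the hosts were Mpo, Gfi1 and Ms4a3. Mpo encodes myeloperoxidase, Gfi1 encodes a transcriptional repressor that acts in granulocyte development, and Ms4a3 is a marker of granulocyte and monocyte progenitors. The granulocyte list has a median length of 7.25 kb, beside 2.33% of all genes up to 10 kb. Dendritic cell genes had 3 hosts of 24 (12.5%, 16.1 kb), and growth factor receptor and cytokine signalling genes 8 of 37 (21.6%, 25.6 kb). The list of ETO corepressors, E proteins and ID inhibitors had 3 of 12, namely Cbfa2t3, Tcf4 and Zeb1.

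Lists of other lineages and of shared functions gave shares from 0% to 13.3%, on both sides of the 7.25% of all genes and of the 10% of the monocyte list. None of 15 B cell genes and none of 23 ribosomal protein and housekeeping genes was a host, and the latter list has a median length of 5.18 kb. For the T cell, NK and innate lymphoid list the count was 4 of 30 (13.3%): Cd247, Gata3, Lck and Rora. Of 39 genes of tissues outside blood, 2 were hosts (5.13%), Ptprd and Magi2, both very long. Erythroid, megakaryocyte and mast genes gave 3 of 24, and cell cycle genes 4 of 32. Among marker genes, 13 of 15 cMoP and monocyte markers had an end called in all 4 lists, against 39.1% of all genes. The counts were 0 of 8 neutrophil, 1 of 6 B cell, 0 of 7 T and NK cell, 1 of 7 erythroid and megakaryocyte and 0 of 4 mast cell and basophil markers. The 15 include progenitor and granule genes such as Kit and Mpo. Of the 30 monocyte and macrophage genes, 12 had such an end, as had 18 of the 23 ribosomal protein and housekeeping genes. The markers thus do not show monocyte identity by themselves.

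To compare strength between libraries, each region was given a place in each list. Place is the percentile of its strongest summit, by the authors' fold of pileup over local background, among the 11891 regions called in all 4 lists, from 0 for the strongest to 100 for the weakest. Stronger and weaker refer to place, which is relative, from here on. The median place of constant intragenic regions was 60.5 for WT replicate 1 and 55.9 for WT replicate 2, against 52.3 for DE replicate 1 and 52.0 for DE replicate 2. Their median fold was 7.05, 8.52, 6.34 and 5.51 in the same order, and their median peak width 218, 290, 305 and 263 bp. By place, the class thus stood a little below the middle, while gene-end regions with H3K4me3 had median places from 36.3 to 42.3. Peak width adds up all peaks of a list within a region. More than 1 peak lay in 323, 165, 78 and 82 of the constant intragenic regions, in the same order of libraries.

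Between constant intragenic and intergenic regions, the difference in median place was larger than its spread between libraries but did not pass the test, and the difference in median width was smaller than its spread. The difference in median place, intragenic minus intergenic, was 0 and -6.11 in the WT libraries and -2.64 and -5.39 in the DE libraries, a mean of -3.54 ± 2.79 (SD, n = 4; exact sign-flip permutation test over libraries, two-sided, p = 0.25). Median widths differed by -19, -1, 11 and 20 bp in the same order, a mean of 2.75 ± 16.9 bp (SD, n = 4; same exact test, p = 0.875). Over 4 libraries this test cannot give a p below 1 in 8. Against gene-end regions without H3K4me3, intragenic regions were narrower in 4 of 4 libraries, by a mean of -38.8 ± 8.66 bp (SD, n = 4; exact test at its smallest possible p, 1 in 8). Their difference in place from that class was -2.53 ± 4.03 (SD, n = 4; exact p = 0.375). As width adds up all peaks of a list in a region, the number of peaks also enters it. In WT replicate 1, 909 of 4336 gene-end regions without H3K4me3 held more than 1 peak, against 323 of 1927 intragenic regions. The part of peak number in the widths was not tested. A p above the threshold does not show that the classes are alike.

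**Figure D3:**
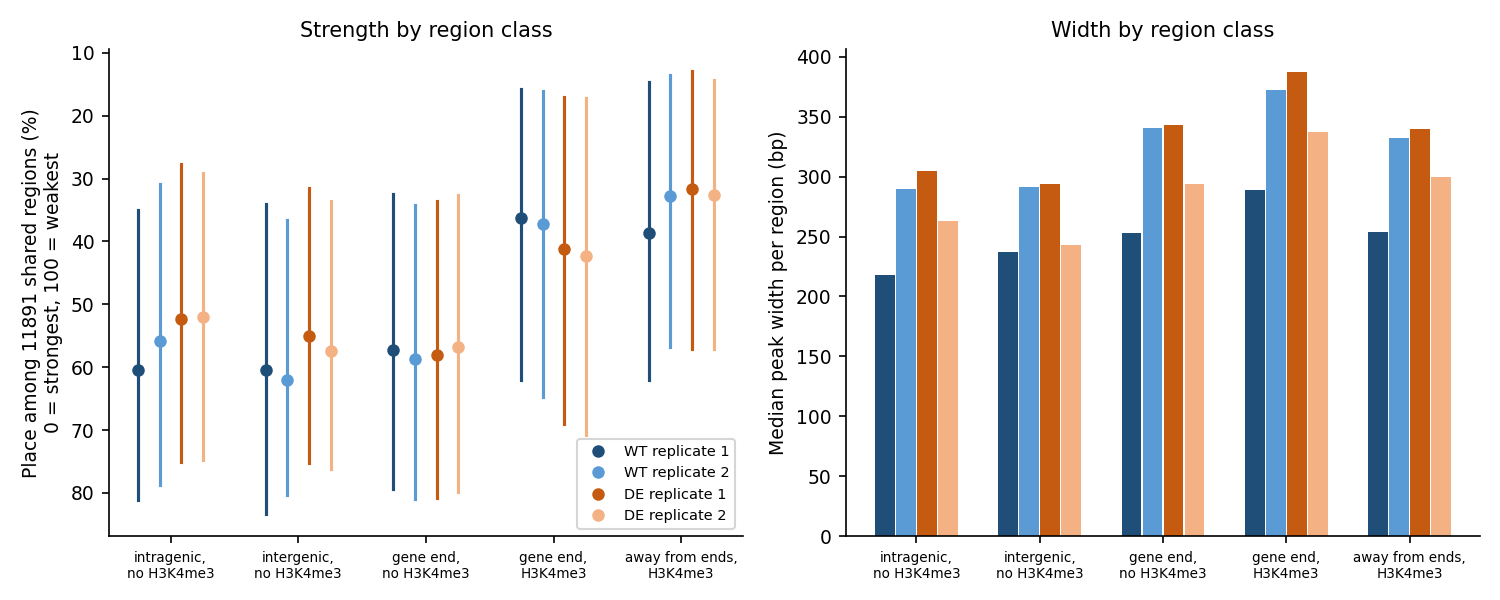
Left, place of the regions in each class and library (0 strongest, 100 weakest among the 11891 regions called in all 4 lists), with points at the median and lines from the lower to the upper quartile. Right, median peak width in bp, with all peaks of a list in a region added up. Constant intragenic regions have median widths from 218 to 305 bp and median places from 52.0 to 60.5.

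Single regions moved more between libraries than the class medians did. The lowest and highest place of a region differed by a median of 35.9 points over the 4 lists. Across the 1927 regions, the correlation of the normal scores of place was 0.546 between the WT libraries, 0.672 between the DE libraries and 0.384 between WT replicate 1 and DE replicate 2. Over all 11891 regions the same values were 0.655, 0.741 and 0.512. These are correlations across regions that share libraries, not replicates. In every list 114 regions (5.92%) stayed among the strongest 25%, against 10.3% of all 11891, and 111 (5.76%) among the weakest 25%, against 5.94%.

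Regions over a start of their host had a stronger median place and a larger median peak width than regions over no start. Their median place was 48.6 and 52.4 in the WT libraries and 51.2 and 50.8 in the DE libraries, whereas regions over no start stood at 63.6 and 56.8 in WT and 53.4 and 52.8 in DE. Median peak widths were 255, 356, 357 and 305 bp over a host start and 203, 267, 281 and 248 bp elsewhere. Both orders held in 4 of 4 libraries and were not tested, and the gap in place is largest in WT replicate 1. Wider regions meet more start windows, so the order of widths cannot be told apart from how the groups were split. Regions whose host has no listed start count as over no start.

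The strongest of the constant intragenic regions lay in genes of varied function, given here as a description. The strongest by mean place, chr3:89089690-89090329 in Rusc1, stood at 0.235 and 1.29 in WT and 0.416 and 0.370 in DE, with a fold of 34.5, 32.1, 26.5 and 22.3. It covered a start of Rusc1 and was strong in every list. The region of Kdm2b, a histone demethylase that binds CpG islands, chr5:122951164-122952035, stood at 0.946, 1.77, 0.265 and 0.732 and covered no listed start. In Bcl6, chr16:23984272-23984568 stood at 0.904, 0.997, 1.18 and 0.753, the narrowest spread of these 3.

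Rora, a nuclear receptor of innate lymphoid cells among others, held a region 97.5 kb from its nearest gene end, chr9:69289494-69290774, at 3.01, 1.14, 0.399 and 0.206. Rora had no H3K4me2 region at its ends in all 4 lists, and its other region had a mean place of 78.2. The region of Prdm1, a transcriptional repressor that shapes plasma cells and myeloid cells, chr10:44458512-44459057, stood at 3.56, 1.17, 0.959 and 1.36 over the start printed above. Sergef, Chadl, Ptpn3, a tyrosine phosphatase, Nfia, a transcription factor of the NFI family, and Mast3, a kinase, completed the 10 strongest, with mean places from 1.21 to 2.67. Of these 10, 4 covered a start of their host, in Rusc1, Sergef, Prdm1 and Ptpn3.

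Regulators of blood cell fate came from a list of 30 genes, of which 15 were hosts, with 39 regions in all. Runx1, a factor needed for definitive blood formation, held 4. The strongest, chr16:92698430-92698955, stood at 18.5 and 13.5 in WT and 19.9 and 3.88 in DE, 1.10 kb from an inner Runx1 start and 0.889 kb from an H3K4me3 peak. The genotypes overlapped there. Of the other 3, 1 lay on the far side of the same start and 2 lay 2.26 and 3.46 kb inside the 5′ end of the gene, with mean places from 50.2 to 80.2.

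Gata2, a factor of stem cells, progenitors and mast cells, held 1 region, over the start whose upstream bases are shown above (chr6:88198546-88198840). It stood at 25.03 and 15.6 in WT and 60.8 and 50.8 in DE. Both DE libraries were weaker than both WT libraries, but the difference in normal scores, DE minus WT, was -0.99 (SE 0.46) with an adjusted p of 0.486 (limma, Benjamini-Hochberg over 11891 regions). Irf8, which drives monocyte and dendritic cell fate, held 1 region 4.30 kb from its nearest end (chr8:120740654-120741368). It stood at 42.2 and 41.0 in WT and 23.2 and 10.4 in DE, so the DE libraries were the stronger. The difference was 0.78 (SE 0.47) with a limma adjusted p of 0.571. Its fold overlapped between genotypes, at 8.80 and 10.3 in WT and 9.40 and 10.4 in DE.

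Cbfa2t3, an ETO family corepressor, held 4 regions. The strongest, chr8:122678559-122679075, stood at 7.79 and 13.5 in WT and 9.21 and 9.89 in DE, with overlap. Another, chr8:122689394-122689635, stood at 15.8 and 18.03 in WT and 11.7 and 6.84 in DE, without overlap (difference 0.38, SE 0.46, limma adjusted p = 0.790). Its place was thus stronger in DE, but its fold was lower in both DE libraries than in both WT libraries. The fold was 13.21 and 15.02 in WT and 11.89 and 11.72 in DE. Meis1, a homeobox factor of stem cells, held 3 regions near its 5′ end, of which chr11:19014663-19014985 was the strongest at 66.8 and 25.2 in WT and 17.7 and 19.0 in DE. The DE libraries were both the stronger, and WT replicate 1 stood apart from the other libraries. By fold the genotypes overlapped there, at 6.60 and 13.1 in WT and 10.4 and 8.55 in DE.

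Myb, a factor of progenitor proliferation, held 1 region at 60.5 and 90.3 in WT and 65.5 and 60.2 in DE. The single region of Mef2c, a MADS-box factor, stood at 39.5 and 82.9 in WT and 77.5 and 73.9 in DE. In both genes the WT libraries differed from each other by more than the DE libraries did. Tcf4, which encodes the E protein E2-2 and lies on chromosome 18, held 3 regions, the strongest at 51.7 and 78.0 in WT and 50.5 and 46.8 in DE, without overlap (limma adjusted p = 0.769).

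Zmiz1, a transcriptional coregulator, held 1 region at 35.5 and 50.9 in WT and 85.4 and 40.2 in DE. The strongest of 5 in Foxp1, chr6:99264315-99264621, stood at 28.8 and 37.5 in WT and 49.0 and 27.5 in DE. In Bach2, a repressor of lymphoid and myeloid cells, the stronger of 2 regions stood at 56.1 and 15.4 in WT and 38.3 and 63.4 in DE. The genotypes overlapped in these 3 genes. Rara held 6 regions, the strongest at 23.1 and 9.63 in WT and 20.7 and 23.0 in DE.

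The strongest region of Elf1, an ETS factor, stood at 71.4 and 20.6 in WT and 18.6 and 12.5 in DE. Hdac7, a class IIa histone deacetylase, had its strongest region at 65.0 and 76.4 in WT and 50.7 and 58.1 in DE. Prkcb, a protein kinase C, held 1 weak region at 69.0, 82.9, 90.6 and 75.2. In Elf1 and Hdac7 both DE libraries had a stronger place than both WT libraries, and in Prkcb the genotypes overlapped. The fold itself overlapped between genotypes in both, at 6.17 and 14.3 in WT and 10.1 and 9.80 in DE for Elf1 and at 6.76 and 6.48 in WT and 6.49 and 5.11 in DE for Hdac7. None of the 39 regions passed an adjusted p of 0.05.

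**Figure D4:**
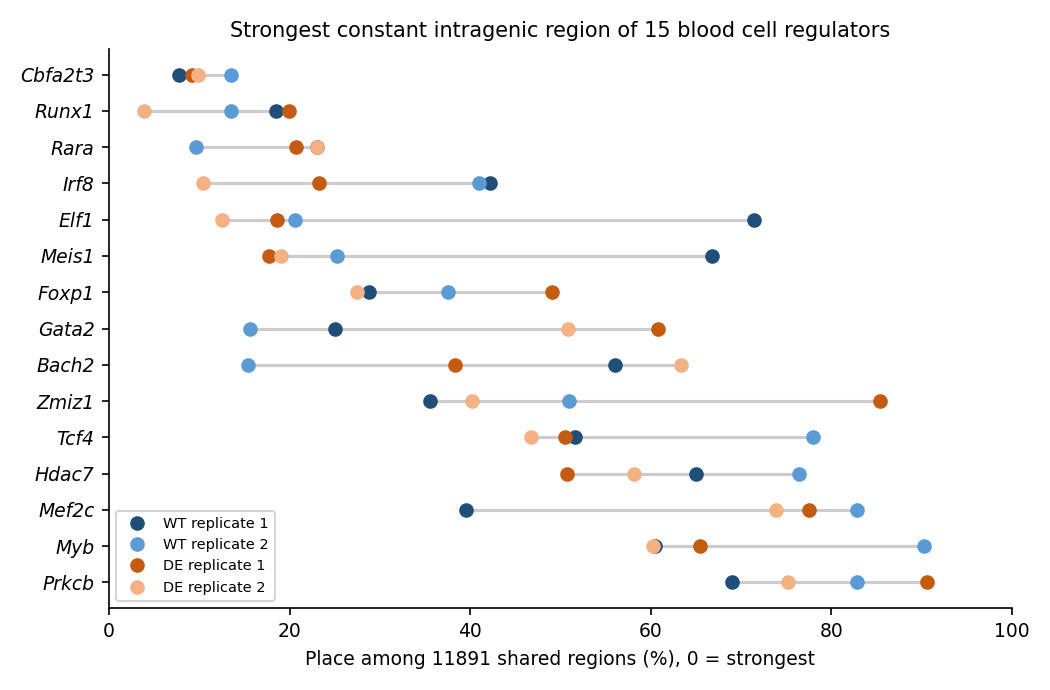
Place of the strongest constant intragenic region of each of 15 blood cell regulators in the 4 libraries (horizontal axis in percent, 0 strongest), ordered by mean place, with 1 point per library and a grey line from the lowest to the highest. Cbfa2t3 and Runx1 stand near the strong end in all 4 libraries, whereas WT replicate 1 stands apart in Elf1 and Meis1.

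Further hosts of the lists show the range of strengths. Spi1, which encodes PU.1, held 2 regions, the stronger (chr2:91084543-91084823, 2.17 kb from the gene's end) at 26.0 and 6.71 in WT and 12.6 and 40.01 in DE. Runx3 held 4 regions within a short stretch, the strongest (chr4:135152826-135153219) at 6.18 and 7.28 in WT and 10.01 and 7.11 in DE. Its neighbour chr4:135153337-135154316 stood at 14.7 and 22.3 in WT and 2.58 and 1.70 in DE, without overlap (difference 1.13, SE 0.46, limma adjusted p = 0.448). These neighbours, in one gene, thus differed in whether the genotypes overlapped.

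Egr2, an early growth response factor of macrophages, held 4 regions. The strongest, over several of its starts, stood at 1.39 and 5.91 in WT and 7.86 and 3.07 in DE. Spn held a region at 22.2 and 5.07 in WT and 1.501 and 5.74 in DE. Gfi1 stood at 26.6 and 12.8 in WT and 11.9 and 9.72 in DE over the start shown above. Of these only Gfi1 had DE libraries that were both stronger than both WT libraries. The fold of the Gfi1 region overlapped between genotypes, at 10.8 and 17.1 in WT and 11.8 and 10.7 in DE. The 3 Mpo regions, by contrast, had mean places of 34.2, 70.04 and 75.04.

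Lymphoid and non-blood hosts were not all weak. The Lck region, in the gene of a T cell kinase, stood at 15.6 and 21.5 in WT and 29.3 and 16.7 in DE. In Magi2, a synaptic scaffold gene, a region stood at 23.7 and 12.7 in WT and 31.0 and 37.7 in DE. The Ptprd region, in a gene of a neuronal receptor phosphatase, stood at 33.3 and 77.6 in WT and 94.9 and 81.6 in DE. Magi2 and Ptprd were weaker in both DE libraries than in both WT libraries, and neither passed the test (limma adjusted p = 0.709 and 0.5004).

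Between genotypes, no constant intragenic region changed place by the test across all regions, but more of them had a stronger than a weaker place in DE. Place is relative, so a rise of some of the 11891 regions is matched by a fall of others, and the median fold of the constant intragenic regions was lower in both DE libraries than in both WT libraries. With limma on the normal scores of place, 0 of 1927 had an adjusted p under 0.05 (background 0% of 11891), and the lowest adjusted p was 0.330. At an unadjusted p under 0.05 there were 224, of which 156 were stronger and 68 weaker in DE, and the background was 10.4%. Both DE libraries were stronger than both WT libraries in 553 regions, 28.7%, against a background of 21.3%. Both were weaker in 300 regions, 15.6%, against 21.5%. Intergenic constant regions without H3K4me3 gave 26.1% and 17.1%, and gene-end regions with H3K4me3 gave 15.6% and 26.7%. The differences between these classes were not tested, and only a WT H3K4me3 list divides them.

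The excess was seen in regions over no listed start, which include regions whose host has none in the start table. The difference from regions over starts was not tested. Of the 1409 over no listed start, 436 (30.9%) were stronger and 189 (13.4%) weaker in DE without overlap, whereas of the 427 over a start of the host, 90 (21.1%) were stronger and 97 (22.7%) weaker. More regions were stronger than weaker in DE under each of 8 other settings that give counts of their own, such as 482 against 297 with strength by −log10 p. Leaving out 1 WT library changed the test. Without WT replicate 1, 1 of 2198 regions passed, in Tmem229b (background 0.0554%). Without WT replicate 2, 73 of 2037 passed, 56 stronger and 17 weaker in DE (background 2.5%), and here the lone WT library was assumed to vary like the DE libraries. Without either DE library none passed. List lengths and shortest intervals moved with genotype, at 31217 and 27282 peaks and 74 and 91 bp in WT and 21237 and 16584 peaks and 109 bp in both DE lists, and their part in these counts was not tested.

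**Figure D5:**
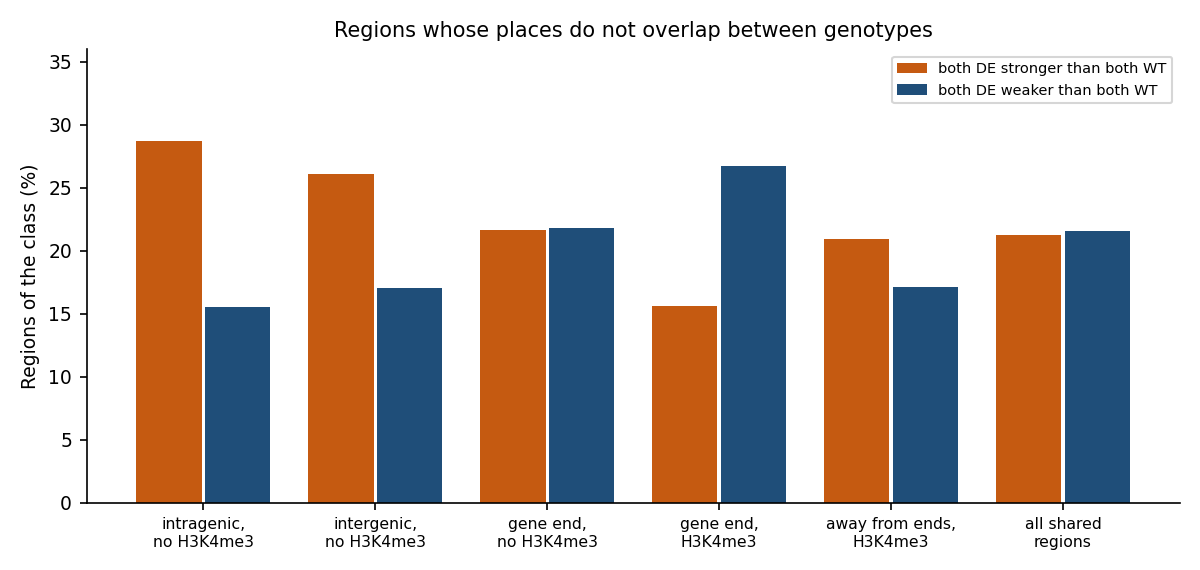
Percent of the regions of each class called in all 4 lists whose places do not overlap between genotypes, with both DE libraries stronger (orange) or both weaker (blue) than both WT libraries. Constant intragenic regions stand at 28.7% and 15.6%, all 11891 regions at 21.3% and 21.5%.

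The regions with the largest differences among those that did not overlap are named as a description. Trp53i11 (chr2:93188422-93188904) stood at 99.6 and 89.5 in WT and 28.5 and 14.2 in DE, with a fold of 3.13, 5.14, 8.65 and 9.33. Psap, the gene of the lysosomal precursor prosaposin (chr10:60284323-60284772), stood at 99.6 and 85.8 in WT and 17.1 and 20.6 in DE. Both were near the weak end in WT and in the stronger part in DE, with differences in normal scores of 2.77 (SE 0.55) and 2.76 (SE 0.56) and a limma adjusted p of 0.330 each. The call on both changed with the replicate number as a block (limma adjusted p = 0.0226 each) and without WT replicate 2 (0.000196 and 0.000147).

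Pde4d, a cAMP phosphodiesterase gene, stood at 98.0 and 90.3 in WT and 22.2 and 27.5 in DE. In Cux1, a homeobox gene, the region moved from 99.98 and 99.5 in WT to 89.3 and 48.4 in DE, so it was weak in 3 of 4 libraries. Both had a limma adjusted p of 0.330.

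In the other direction, Psen2, a gene of the gamma-secretase complex (chr1:180256220-180256499), stood at 3.20 and 4.02 in WT and 66.7 and 62.7 in DE, with the closest agreement between replicates of the 9 regions named. Ntan1 stood at 0.130 and 18.03 in WT and 64.0 and 68.5 in DE. Trps1, a GATA-type repressor gene, stood at 6.98 and 46.8 in WT and 86.8 and 96.3 in DE. In Trps1 the WT libraries lay far apart.

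Snx29, a sorting nexin gene, stood at 2.11 and 12.1 in WT and 37.7 and 82.2 in DE, and Foxred2 at 25.4 and 50.5 in WT and 88.6 and 97.1 in DE. Of the 5 weaker regions, those in Psen2 and Foxred2 covered a start of their host, as did that in Psap among the stronger ones named. The limma adjusted p was 0.351 for Snx29 and 0.330 for the other 4.

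At the 1 kb limit from gene ends, the regions just inside lay 1004 bp from an end in Lpgat1, 1005 bp in Sgf29 and 1008 bp in Rhobtb2, with mean places of 59.2, 61.8 and 51.9. Just outside lay regions 999 bp from an end of Itpripl1, 999 bp from an end of Csf3r, the receptor of granulocyte colony-stimulating factor, and 997 bp from an end of Sowahc, with mean places of 86.1, 38.2 and 28.6.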

How the data were processed

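Peak lists of 5 of 7 samples were used, each from 1 library, so the authors called peaks per sample. The submitters' processing notes name mm10, MACS2 2.2.9.1, Bowtie2, Picard, SAMtools and Trimmomatic; settings, duplicates and controls were not stated there. Each deposited peak has a score, a fold over local background (a linear ratio), −log10 p and q values and a summit offset, all as deposited by the authors. They ranked or filtered peaks within a list. Read depth is unknown, as the files hold no read totals; the autosomal H3K4me2 lists hold 31217, 27282, 21237 and 16584 peaks and the H3K4me3 list 6322. The lowest −log10 q in the deposited lists was 1.00 to 1.02. The header of the DE replicate 1 list carries the name of DE replicate 2; GEO's own assignment of the file was followed.

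Intervals were merged, and regions sharing at least 1 bp with a peak counted as called, on the 19 autosomes with coordinates counted from 1. Genes and sequences came from RefSeq tables of GRCm38.p6; chromosome 18 has no start windows there, which leaves 56 regions without one. Genes named are the 10 strongest regions, the 10 genes with most regions, up to 6 hosts per list, all hosts of the regulator list, 5 regions per direction by genotype and 3 on each side of the 1 kb limit; others were chosen after their values were seen, and some items are not reported here. The regions and lists were chosen with earlier results of these data known. Genotypes were compared with limma 3.58.1 (R 4.3.3) on normal scores of place, without a replicate block, with Benjamini-Hochberg adjustment over 11891 regions, and classes with exact sign-flip tests over libraries (Python 3.11.15, scipy 1.17.1). The limma step was tested on simulated data. No list of problem regions was applied. Alternatives changed the peak threshold, list length, merging, presence, distances, strength measure, scale and libraries used.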

Additional observations from a re-analysis of the deposited data

Results flagged for a closer look

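The X chromosome was left out of all comparisons. By the same rule it held 41 constant intragenic regions without H3K4me3, of 270 regions called in all 4 lists and 1536 merged regions there. They are listed because they lie in data that the comparisons do not use. A count over 3 was enough to be listed, and this is no test.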

How the results depend on the processing

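The number of constant intragenic regions fell from 1927 to 741 with peaks of a −log10 q of at least 5, to 1233 with lists of equal length and to 935 when peaks had to cover 50% of a region, and it ran from 2037 to 2707 when 1 library was left out. All 741, 1233 and 935 were among the 1927. Genes of the lists holding a region fell from 81 to 46 at the stricter threshold and ran from 85 to 99 without 1 library. The difference in width from intergenic regions rose from 2.75 to 16.8 bp at the stricter threshold (exact test at its smallest possible p, 1 in 8). It changed sign, to -0.875 bp with lists of equal length and to -4.25 bp beyond 2 kb from gene ends, and ran from -5 to 8.33 bp without 1 library, at -0.167 bp without DE replicate 1 and -5 bp without DE replicate 2. The difference in place kept its sign under all 12 alternatives and ran from -4.83 to -3.46 without 1 library. It shrank from -3.54 to -1.12 with lists of equal length and to -1.14 with 50% cover, and was -2.43 at the stricter threshold and -5.12 by −log10 p.

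With the replicate number as a block, 2 regions passed in place of 0, in Trp53i11 and Psap (limma adjusted p = 0.0226), the only calls among all 11891 regions, both stronger in DE. The labels do not say that the numbers pair the samples, and the deviations of same-numbered libraries had a correlation of 0.0104 across 11891 regions. The count of regions that passed ran from 0 to 73 without 1 library, with 1 without WT replicate 1 and 73 without WT replicate 2. The causes were not tested. With no read depths, differences between weak regions cannot be set against counting error, and 2 libraries per genotype limit every call.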

Other observations

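Annotated miRNA hairpins lay under 5 constant intragenic regions, in Mllt10 (Mir7655), Mex3a (Mir1905), Clcn4 (Mir5620), Gse1 (Mir7687) and Arl10 (Gm24195). Without WT replicate 2, the regions that passed with the lowest limma adjusted p, named after their values were seen, included those of Satb1, the gene of a chromatin organiser (place 99.5 in WT replicate 1 and 22.7 and 40.4 in DE, adjusted p = 0.00119). Another was in Zmynd8, the gene of a chromatin reader (98.1 in WT replicate 1 and 8.89 and 33.4 in DE, adjusted p = 0.0023). These rest on 1 WT library.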
